A study of Mus musculus with 18 samples.

Results

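The genes described here are 9 mouse germline genes, *Dazl*, *Ddx4*, *Mael*, *Asz1*, *Stk31*, *Sycp1*, *Sycp3*, *Hormad1* and *Slc25a31*, chosen by name out of the 24369 gene rows of the deposited expression table. All 9 were found. They were followed in 2 RNA-seq experiments on E14 mouse embryonic stem cells (mESCs) of the genotype Rex1GFPd2-Cas9, in which a GFP reporter marks expression of *Rex1* (listed as *Zfp42*) and Cas9 is expressed in all groups, controls included. The time course holds cells without a further mutation at days 0, 1, 2 and 3 of differentiation, with 3 libraries a day. The other experiment holds sorted GFP+ cells of 3 genotypes with 2 libraries each, namely wild-type (Rex1GFPd2-Cas9 alone), *Nprl2* KO (*Nprl2*-/-) and *Tsc2* KO (*Tsc2*-/-). The KO lines were grown from picked colonies with an exon deleted on both alleles, and the labels do not say whether the 2 libraries of a genotype came from different clones or cultures, so the p-values measure only the spread between these libraries, which may be technical. The sort kept only cells with reporter expression, and the culture of the time-course cells before day 0 is not given in the sources used here.

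Germline genes of this kind are used in the developing egg and sperm and are held off in the body's other cells. In the mouse embryo, DNA methylation laid down at their CpG-rich promoters around implantation by Dnmt3a and Dnmt3b is a known part of that silencing, and a Polycomb complex that contains Mga, Max, E2f6, L3mbtl2 and Pcgf6 is known to hold many of them down in mESCs. *Nprl2* encodes a subunit of Gator1 and *Tsc2* a subunit of the Tsc complex, and both complexes restrain the growth kinase complex mTORC1. DNA methylation was not measured in these libraries. The name of the set describes what is known of such genes and was not tested.

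The start regions of the 9 genes were searched for features that the paragraph above ties to such genes, so the counts describe them and are no test. In the 250 bases before the RefSeq transcript start (build GRCm38.p6), each of the 9 had more CpG dinucleotides than the median of 6 over all 32851 such windows, from 12 in *Sycp3* to 31 in *Ddx4*. The ratio of observed to expected CpG was 0.639 to 1 in the 9 windows, against a median of 0.373 over all windows. The letters CACGTG, the E-box to which Mga with Max can bind and which reads the same on both strands, occurred in 7 of the 9 windows, against 6.02% of all windows. The letters TCCCGC or GCGGGA, an E2F-type motif searched on both strands, occurred in 4 of the 9, against 16.9% of all windows, and these 4 (*Ddx4*, *Mael*, *Sycp3* and *Hormad1*) also held the E-box, as did 1.45% of all windows. The motifs did not overlap each other. *Dazl* and *Asz1* held neither. Each of these motifs contains a CpG, and the shares are over all windows, not over windows as rich in CpG as the members. A match is a description of letters and not of binding.

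Of these windows 5 are printed, 5′ to 3′ in the direction of the gene, because they belong to 3 members that rose in *Tsc2* KO cells and hold a match (*Mael*, *Sycp3* and *Slc25a31*), to a member that rose there without a match (*Dazl*) and to the member that fell there (*Hormad1*). Capitals mark the E-box and the E2F-type motif. The table of starts lists more than 1 window for *Hormad1* and *Stk31*, of which the first was used.
Dazl, GRCm38.p6 chr17:50293621-50293870, minus strand: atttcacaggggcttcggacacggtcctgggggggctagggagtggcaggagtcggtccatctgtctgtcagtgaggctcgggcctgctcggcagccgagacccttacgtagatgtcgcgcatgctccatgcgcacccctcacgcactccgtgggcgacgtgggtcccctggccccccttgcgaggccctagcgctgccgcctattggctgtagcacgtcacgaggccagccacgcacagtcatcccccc
Mael, GRCm38.p6 chr1:166238745-166238994, minus strand: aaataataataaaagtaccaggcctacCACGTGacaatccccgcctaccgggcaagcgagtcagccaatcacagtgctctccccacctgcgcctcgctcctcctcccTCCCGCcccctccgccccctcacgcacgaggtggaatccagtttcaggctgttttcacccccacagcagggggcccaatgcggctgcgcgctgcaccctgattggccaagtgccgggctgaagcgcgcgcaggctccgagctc
Sycp3, GRCm38.p6 chr10:88459337-88459586, plus strand: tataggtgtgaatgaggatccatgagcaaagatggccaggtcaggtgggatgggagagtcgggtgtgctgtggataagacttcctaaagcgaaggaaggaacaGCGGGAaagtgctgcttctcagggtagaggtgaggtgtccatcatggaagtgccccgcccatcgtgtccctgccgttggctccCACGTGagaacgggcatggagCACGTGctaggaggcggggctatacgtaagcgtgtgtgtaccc
Slc25a31, GRCm38.p6 chr3:40708621-40708870, plus strand: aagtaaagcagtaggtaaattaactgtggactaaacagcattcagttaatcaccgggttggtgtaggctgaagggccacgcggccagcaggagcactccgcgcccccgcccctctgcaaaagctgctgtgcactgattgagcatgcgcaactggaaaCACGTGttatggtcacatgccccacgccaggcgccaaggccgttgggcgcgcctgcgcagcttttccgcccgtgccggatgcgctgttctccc
Hormad1, GRCm38.p6 chr3:95559427-95559676, plus strand: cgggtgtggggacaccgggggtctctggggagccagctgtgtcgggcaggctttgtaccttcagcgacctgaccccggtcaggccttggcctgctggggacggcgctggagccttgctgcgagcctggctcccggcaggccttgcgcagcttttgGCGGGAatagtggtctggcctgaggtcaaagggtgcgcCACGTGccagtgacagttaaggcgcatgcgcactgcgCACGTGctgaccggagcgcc

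The first base of the E-box lay 223 bases before the start in *Mael*, 93 in *Slc25a31*, 94 in *Sycp1*, 55 in *Stk31* and 29 in *Ddx4*. *Sycp3* had the E-box at 64 and 43 bases and *Hormad1* at 57 and 20 bases before the start. The windows of *Ddx4* and *Stk31* overlap another annotated transcript of the same gene.

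Library totals were between 12503005 and 15305054 estimated counts in the time course and between 8610357 and 13780861 in GFP+ cells. The targeted genes went the way of their labels. *Nprl2* was lower in *Nprl2* KO cells (log2 fold change -0.96, SE 0.18, adjusted p = 0.00888), and *Tsc2* was lower in *Tsc2* KO cells (-1.23, SE 0.08, adjusted p = 9.74e-07). Levels are given as TPM, which is scaled for transcript length and can be compared between genes. Changes are log2 fold changes of counts with their SE, and a gene is said to have risen or fallen where its p adjusted over all tested genes was under 0.05.

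Across differentiation the members rose on the first day and fell on the third. From day 0 to day 1, 7 of the 8 tested members rose and none fell, while 30.1% of the 14382 tested genes rose and 30.8% fell. From day 2 to day 3 all 8 tested members fell, where 15.6% of tested genes fell and 15.9% rose. The day between was mixed, with *Ddx4* and *Sycp3* rising and *Dazl*, *Hormad1*, *Stk31* and *Slc25a31* falling (32.5% of tested genes rose and 29.6% fell). The median log2 fold change of the tested members was 0.70 from day 0 to 1, -0.36 from day 1 to 2 and -2.09 from day 2 to 3, while the median of all tested genes lay between -0.01 and 0.02 in these comparisons. *Asz1* had at most 10 counts in any library and did not pass the filter on low counts.

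**Figure D1:**
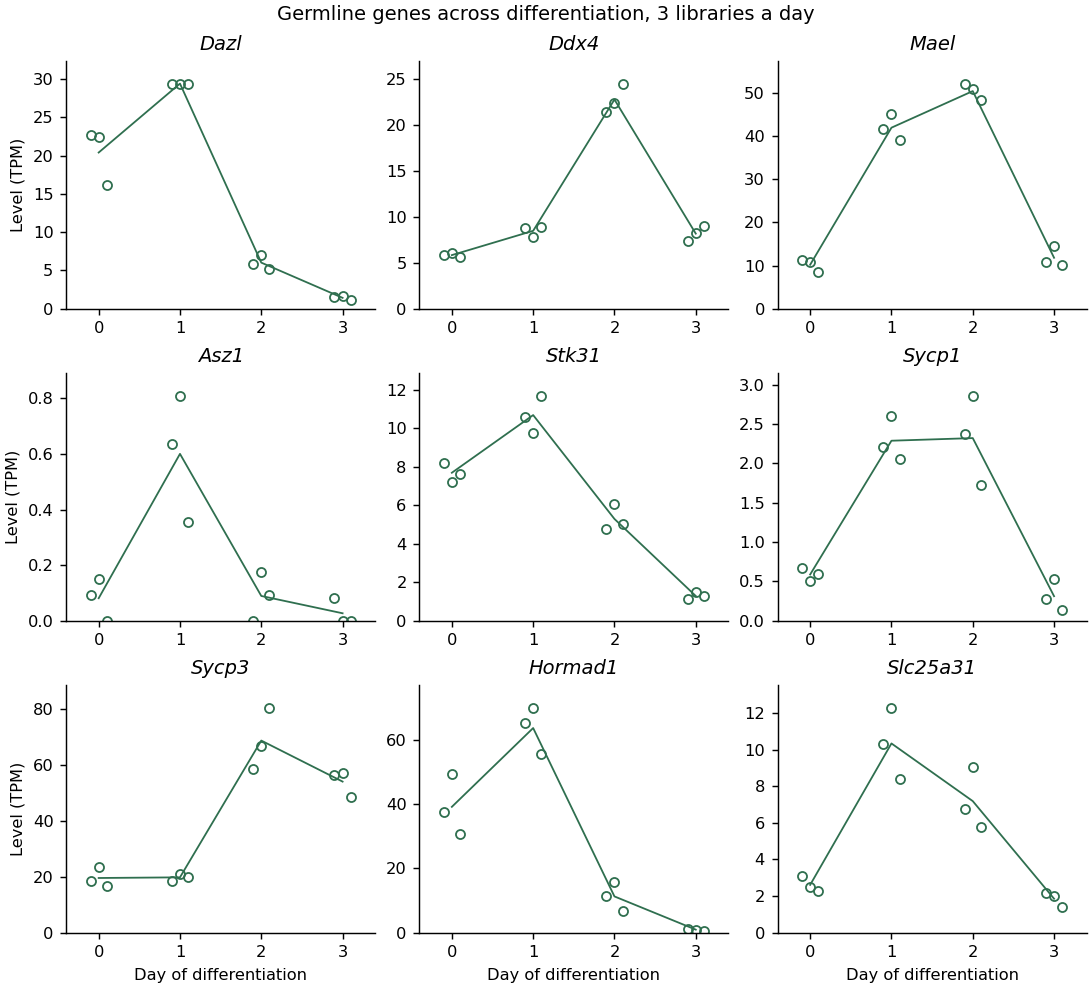
Level in TPM (vertical axis) of the 9 germline genes at days 0 to 3 of differentiation (horizontal axis), with 1 circle for each library and a line through the daily means. *Dazl*, *Hormad1*, *Stk31* and *Slc25a31* had their highest mean at day 1, *Ddx4* and *Sycp3* at day 2, and *Sycp3* was still at 48.6 to 57.2 TPM at day 3. *Mael* and *Sycp1* did not pass the test between days 1 and 2, and the *Sycp1* means of these days were 2.28 and 2.32 TPM with overlapping libraries.

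*Dazl* and *Ddx4* encode RNA-binding proteins of germ cells, the former a regulator of translation and the latter an RNA helicase known as the mouse Vasa protein. *Dazl* (chr17:50279393-50293620) was at 22.7, 22.4 and 16.1 TPM at day 0, at 29.4 TPM in each day 1 library, at 5.85, 7.07 and 5.15 TPM at day 2 and at 1.55, 1.63 and 1.1 TPM at day 3. The days did not overlap at any step. Its log2 fold changes were 0.59 (SE 0.12, adjusted p = 0.000276), -2.39 (SE 0.14, adjusted p = 5.78e-11) and -2.11 (SE 0.20, adjusted p = 9.52e-07). *Ddx4* (chr13:112598333-112652633) was at 5.81, 6.09 and 5.61 TPM at day 0, at 8.77, 7.77 and 8.90 TPM at day 1, at 21.4, 22.4 and 24.5 TPM at day 2 and at 7.33, 8.24 and 8.96 TPM at day 3. *Ddx4* thus went up when *Dazl* went down, between days 1 and 2. The log2 fold change of *Ddx4* was 0.61 (SE 0.11, adjusted p = 8.43e-05) on the first day, 1.31 (SE 0.10, adjusted p = 1.31e-09) on the second and -1.52 (SE 0.10, adjusted p = 1.14e-08) on the third.

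*Mael*, *Asz1* and *Stk31* belong to the piRNA machinery, which silences transposons in germ cells, *Mael* and *Asz1* as parts of germ granules and *Stk31* as a Tudor domain protein. *Mael* (chr1:166201385-166238744) was at 11.3, 10.8 and 8.45 TPM at day 0, at 41.7, 45.0 and 39.0 TPM at day 1, at 52.1, 50.8 and 48.2 TPM at day 2 and at 10.8, 14.5 and 10.1 TPM at day 3. Day 3 overlapped day 0, and days 1 and 2 stood well above both. *Mael* rose 4.32-fold on the first day (log2 fold change 2.11, SE 0.13, adjusted p = 6.17e-11) and fell 4.37-fold on the third (-2.13, SE 0.13, adjusted p = 6.11e-09), while from day 1 to 2 it changed by 0.15 (SE 0.11, adjusted p = 0.244). *Stk31* (chr6:49395506-49469506) was at 8.20, 7.23 and 7.64 TPM at day 0, at 10.6, 9.76 and 11.7 TPM at day 1, at 4.77, 6.05 and 5.05 TPM at day 2 and at 1.11, 1.48 and 1.27 TPM at day 3. Like *Dazl*, it had no overlap between neighbouring days. Its log2 fold changes were 0.54 (SE 0.12, adjusted p = 0.000632), -1.12 (SE 0.12, adjusted p = 3.15e-07) and -2.08 (SE 0.16, adjusted p = 7.51e-08). *Asz1* (chr6:18050964-18109061) had 1, 2 and 0 counts at day 0, 8, 10 and 4 at day 1, 0, 2 and 1 at day 2 and 1, 0 and 0 at day 3. Its day 1 libraries lay above those of every other day, at a depth where the upper limit behind a count of 0, which is 3 counts, equals 0.199 to 0.245 CPM (counts scaled to the library total), for counting error only.

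*Sycp1*, *Sycp3* and *Hormad1* encode proteins of the paired meiotic chromosomes: *Sycp3* builds their axis, *Hormad1* sits on unpaired axes and *Sycp1* bridges the axes of a pair. *Hormad1* (chr3:95559677-95587863) was at 37.6, 49.2 and 30.6 TPM at day 0, at 65.2, 70.0 and 55.7 TPM at day 1, at 11.3, 15.7 and 6.85 TPM at day 2 and at 1.2, 0.995 and 0.687 TPM at day 3. It was the member with the highest mean level at days 0 and 1, and at day 3 it had only 7 to 13 counts a library. It rose 1.71-fold (log2 fold change 0.78, SE 0.22, adjusted p = 0.0119), then fell 6.07-fold (-2.60, SE 0.26, adjusted p = 7.86e-06) and 12.2-fold (-3.61, SE 0.48, adjusted p = 0.000344). *Sycp3* (chr10:88459587-88473236) was at 18.6, 23.4 and 16.7 TPM at day 0, at 18.4, 20.9 and 20.1 TPM at day 1, at 58.7, 66.9 and 80.5 TPM at day 2 and at 56.3, 57.2 and 48.6 TPM at day 3. Days 0 and 1 overlapped, and days 2 and 3 lay above both. *Sycp3* rose 3.19-fold on the second day (log2 fold change 1.68, SE 0.13, adjusted p = 2.38e-09). On the first day it changed by 0.09 (SE 0.14, adjusted p = 0.630) and on the third by -0.38 (SE 0.12, adjusted p = 0.0177), a call that was lost without day 2 library 3 (-0.26, adjusted p = 0.0982) or without day 3 library 3 (-0.30, adjusted p = 0.0928). *Sycp1* (chr3:102818499-102936100) was at 0.668, 0.503 and 0.591 TPM at day 0, at 2.21, 2.60 and 2.05 TPM at day 1, at 2.37, 2.86 and 1.73 TPM at day 2 and at 0.270, 0.532 and 0.133 TPM at day 3. These low levels rest on 3 to 68 counts a library. *Sycp1* rose 4.1-fold on the first day (log2 fold change 2.04, SE 0.30, adjusted p = 9.2e-06) and fell 7.49-fold on the third (-2.90, SE 0.34, adjusted p = 6.07e-06), with -0.09 (SE 0.25, adjusted p = 0.768) between. Without day 3 library 2 the fall on the third day was -3.50 (adjusted p = 4.96e-06), and on the log2(TPM + 1) scale, which understates changes of low levels, it was -1.34 by limma (adjusted p = 2.94e-05).

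*Slc25a31* encodes the germ cell form of the mitochondrial carrier that exchanges ADP and ATP. *Slc25a31* (chr3:40708871-40726094) was at 3.08, 2.48 and 2.28 TPM at day 0, at 10.3, 12.3 and 8.42 TPM at day 1, at 6.74, 9.08 and 5.75 TPM at day 2 and at 2.15, 2.00 and 1.42 TPM at day 3. Days 1 and 2 overlapped, and day 3 lay below every other day. It rose 4.18-fold on the first day (log2 fold change 2.06, SE 0.21, adjusted p = 9.41e-08) and fell 3.96-fold on the third (-1.98, SE 0.23, adjusted p = 6.95e-06). The fall between days 1 and 2 was smaller (-0.64, SE 0.19, adjusted p = 0.00606) and was no longer called without day 1 library 2 (-0.49, adjusted p = 0.0515).

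Set against day 0, the members ended the third day apart from each other. *Dazl*, *Hormad1*, *Stk31* and *Sycp1* were lower at day 3 than at day 0 and *Ddx4* and *Sycp3* were higher, that is 4 and 2 of the 8 tested, while 35.9% of all tested genes were lower and 35.0% higher. *Hormad1* was 43.1-fold lower (log2 fold change -5.43, SE 0.40, adjusted p = 3.58e-07), *Dazl* 15-fold lower (-3.90, SE 0.17, adjusted p = 3.78e-13) and *Stk31* 6.31-fold lower (-2.66, SE 0.16, adjusted p = 1.48e-11). *Sycp3* was 2.6-fold higher (1.38, SE 0.13, adjusted p = 1.67e-08) and *Ddx4* 1.32-fold higher (0.40, SE 0.11, adjusted p = 0.00332). *Mael* (0.13, SE 0.15, adjusted p = 0.432) and *Slc25a31* (-0.56, SE 0.27, adjusted p = 0.0665) did not pass the test. *Sycp1* (-0.96, SE 0.41, adjusted p = 0.0458) passed it narrowly and was lost when any of 4 libraries was left out, day 0 library 1 (-0.87) or 3 (-0.94), or day 3 library 1 (-0.86) or 3 (-0.61), with adjusted p between 0.079 and 0.196. Without day 3 library 2 it was larger (-1.57, adjusted p = 0.00609).

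The order of the members changed accordingly. At day 0 the mean levels ran from *Hormad1* (39.1 ± 9.38 TPM, SD, n = 3) through *Dazl* (20.4 ± 3.71), *Sycp3* (19.6 ± 3.49), *Mael* (10.2 ± 1.53), *Stk31* (7.69 ± 0.489), *Ddx4* (5.84 ± 0.237) and *Slc25a31* (2.61 ± 0.415) to *Sycp1* (0.587 ± 0.0826). Of these neighbours only *Dazl* and *Sycp3* overlapped. At day 3 they ran from *Sycp3* (54 ± 4.74 TPM, SD, n = 3) through *Mael* (11.8 ± 2.37), *Ddx4* (8.18 ± 0.817), *Slc25a31* (1.86 ± 0.385), *Dazl* (1.43 ± 0.286), *Stk31* (1.29 ± 0.188) and *Hormad1* (0.959 ± 0.256) to *Sycp1* (0.312 ± 0.203). The neighbours from *Slc25a31* to *Hormad1* overlapped, so their order is not resolved. In these bulk samples fewer cells with a transcript and less of it per cell cannot be told apart.

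In GFP+ cells the members were mostly higher in *Tsc2* KO than in wild-type cells. *Dazl*, *Mael*, *Sycp3*, *Slc25a31* and *Stk31* rose and *Hormad1* fell, 5 and 1 of the 8 tested, where 14.9% of the 13725 tested genes rose and 14.2% fell. The median log2 fold change of the tested members was 0.71, against 0.00 for all tested genes.

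**Figure D2:**
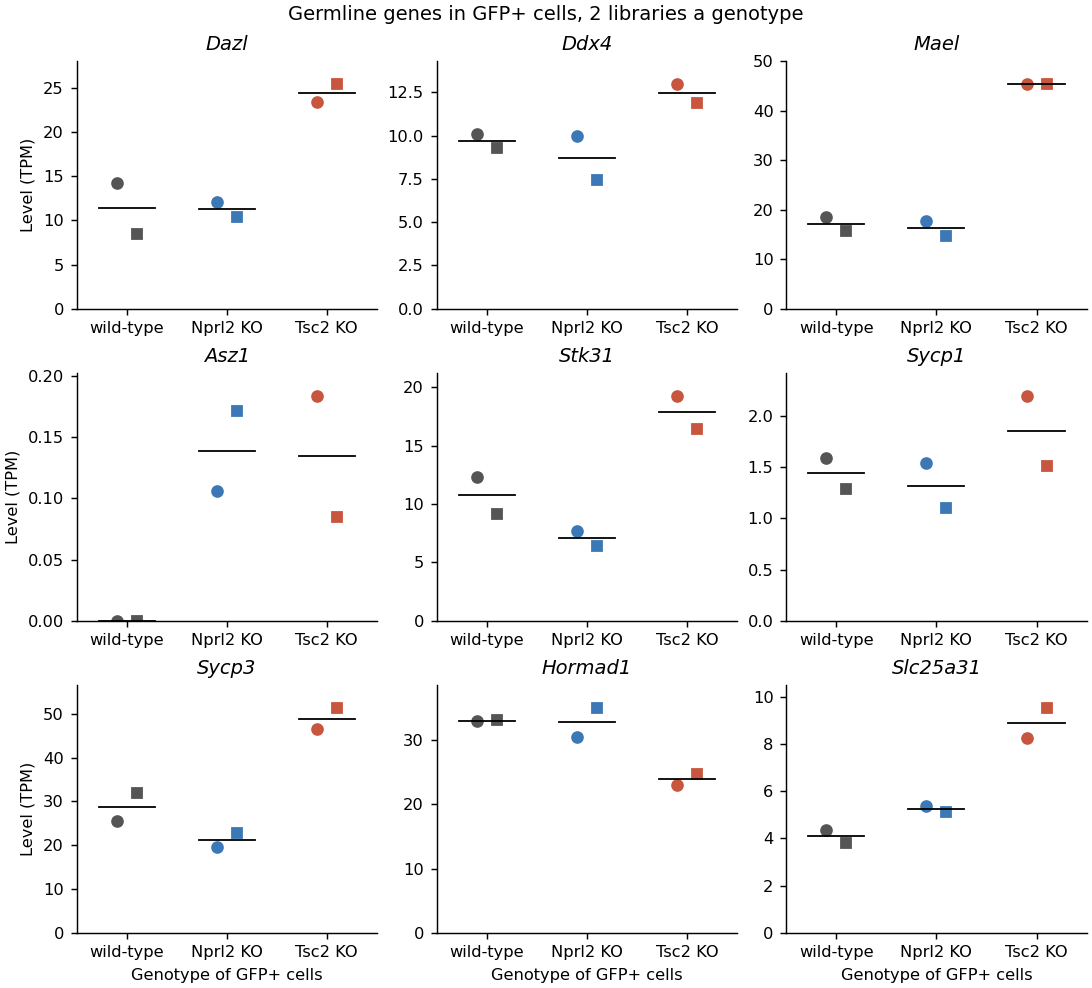
Level in TPM (vertical axis) of the 9 germline genes in GFP+ cells of 3 genotypes (horizontal axis), with a circle for library 1, a square for library 2 and a bar at the mean of the 2. Both *Tsc2* KO libraries lay above the wild-type and *Nprl2* KO libraries for *Dazl*, *Ddx4*, *Mael*, *Stk31*, *Sycp3* and *Slc25a31* and below them for *Hormad1*. The share of all genes separated in this way was not computed.

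*Mael* was at 18.5 and 15.8 TPM in wild-type cells, at 17.8 and 14.8 TPM in *Nprl2* KO cells and at 45.5 and 45.4 TPM in *Tsc2* KO cells. In *Tsc2* KO cells the level was 2.56-fold that of wild-type cells (log2 fold change 1.36, SE 0.13, adjusted p = 2.02e-05) and 2.68-fold that of *Nprl2* KO cells (1.42, SE 0.13, adjusted p = 8.97e-06). *Mael* lies on chromosome 1, where the median change of the 747 tested genes was 0.37 in *Tsc2* KO against wild-type cells and 0.36 against *Nprl2* KO cells (log2). The change of *Mael* was larger than that shift, whose part in it was not tested, so its size is not ranked against the other members. On the chromosomes of the other tested members the medians lay between -0.05 and 0.04 in both comparisons.

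*Dazl* was at 14.2 and 8.51 TPM in wild-type cells, at 12.1 and 10.4 TPM in *Nprl2* KO cells and at 23.4 and 25.5 TPM in *Tsc2* KO cells, a 2.08-fold rise over wild-type (log2 fold change 1.06, SE 0.19, adjusted p = 0.00299). *Slc25a31* was at 4.36 and 3.80 TPM in wild-type cells, at 5.35 and 5.11 TPM in *Nprl2* KO cells and at 8.26 and 9.54 TPM in *Tsc2* KO cells, a 2.12-fold rise over wild-type (1.08, SE 0.20, adjusted p = 0.00171). For both genes the *Tsc2* KO libraries lay above all others. *Sycp3* was at 25.5 and 32.0 TPM in wild-type cells, at 19.6 and 22.7 TPM in *Nprl2* KO cells and at 46.4 and 51.4 TPM in *Tsc2* KO cells (*Tsc2* KO against wild-type 0.73, SE 0.15, adjusted p = 0.0035). *Stk31* was at 12.3 and 9.19 TPM in wild-type cells, at 7.70 and 6.40 TPM in *Nprl2* KO cells and at 19.3 and 16.4 TPM in *Tsc2* KO cells (0.69, SE 0.16, adjusted p = 0.0069). Here the *Nprl2* KO libraries lay below and the *Tsc2* KO libraries above those of wild-type. The call of *Stk31* was lost without wild-type library 2 (0.51, adjusted p = 0.0527) or without *Tsc2* KO library 1 (0.55, adjusted p = 0.0621).

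*Hormad1* went the other way. It was at 33.0 and 33.1 TPM in wild-type cells, at 30.5 and 35.1 TPM in *Nprl2* KO cells and at 23.0 and 24.8 TPM in *Tsc2* KO cells, where it was 1.43-fold lower than in wild-type (log2 fold change -0.51, SE 0.12, adjusted p = 0.00795). Without *Tsc2* KO library 1 the value was -0.48 and no longer passed the test (adjusted p = 0.0526). *Ddx4* was at 10.1 and 9.29 TPM in wild-type cells, at 10 and 7.43 TPM in *Nprl2* KO cells and at 13.0 and 11.9 TPM in *Tsc2* KO cells (*Tsc2* KO against wild-type 0.32, SE 0.16, adjusted p = 0.165). *Sycp1* was at 1.59 and 1.29 TPM in wild-type cells, at 1.54 and 1.1 TPM in *Nprl2* KO cells and at 2.20 and 1.51 TPM in *Tsc2* KO cells (0.32, SE 0.32, adjusted p = 0.507). The *Sycp1* libraries of *Tsc2* KO and wild-type cells overlapped, and those of *Ddx4* did not. *Asz1* had 0 counts in both wild-type libraries, 1 and 2 counts in *Nprl2* KO cells and 2 and 1 counts in *Tsc2* KO cells, all at or below the 3 counts (0.217 to 0.359 CPM) that a count of 0 allows.

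In *Nprl2* KO cells no tested member passed the test against wild-type, where 2.78% of tested genes rose and 3.66% fell. At an unadjusted p under 0.05 there were 2, both lower, where 11.3% of tested genes were lower and 10.5% higher at that threshold. They were *Stk31* (log2 fold change -0.59, SE 0.17, adjusted p = 0.0663) and *Sycp3* (-0.42, SE 0.16, adjusted p = 0.154 by edgeR). Neither was called by DESeq2 or limma. *Stk31* was called without the filter on low counts (adjusted p = 0.00295), under a replicate block (adjusted p = 0.00426) and without wild-type library 2 (-0.76, adjusted p = 0.0371), and *Sycp3* under the block (adjusted p = 0.0385). *Slc25a31* was at 0.38 (SE 0.21, adjusted p = 0.33), and the other 5 tested members lay between -0.13 and 0.02 with SEs of 0.12 to 0.34, the widest for *Sycp1*. The median over the tested members was -0.08, against 0.00 for all tested genes.

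Set directly against *Nprl2* KO cells, *Tsc2* KO cells had 6 of the 8 tested members higher and 1 lower, where 17.5% of tested genes were higher and 16.6% lower. This comparison shares its *Tsc2* KO libraries with the comparison above. Beside *Mael*, the differences were 1.27 for *Stk31* (SE 0.16, adjusted p = 0.000103), 1.15 for *Sycp3* (SE 0.15, adjusted p = 0.000123), 1.05 for *Dazl* (SE 0.19, adjusted p = 0.00215), 0.70 for *Slc25a31* (SE 0.19, adjusted p = 0.0126) and -0.53 for *Hormad1* (SE 0.12, adjusted p = 0.00492) on the log2 scale. *Ddx4* was at 0.44 (SE 0.16, adjusted p = 0.0488) and *Sycp1* at 0.42 (SE 0.32, adjusted p = 0.342). Leaving out *Nprl2* KO library 2 ended the calls of *Ddx4* (0.24), *Hormad1* (-0.40) and *Slc25a31* (0.67). Leaving out *Tsc2* KO library 1 ended the call of *Ddx4* (0.37, adjusted p = 0.213), and leaving out *Tsc2* KO library 2 ended those of *Ddx4* (0.53, adjusted p = 0.0854) and *Slc25a31* (0.61, adjusted p = 0.097). DESeq2 called neither *Ddx4* (adjusted p = 0.181) nor *Slc25a31* (adjusted p = 0.116).

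**Figure D3:**
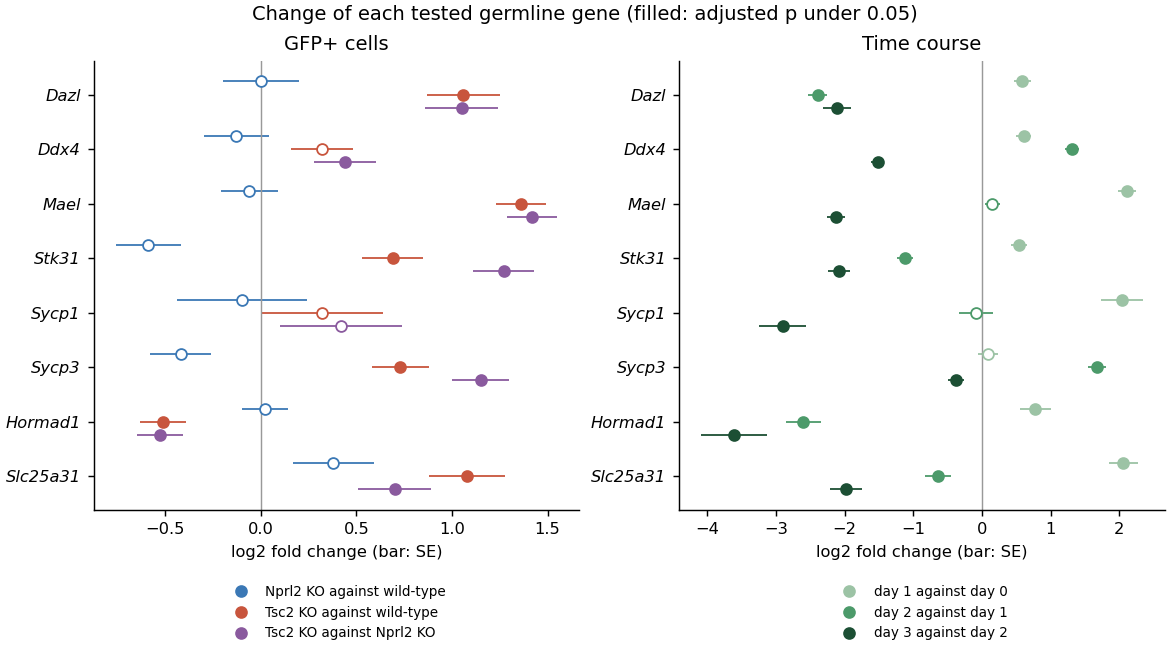
Log2 fold change (horizontal axis, bars show the SE) of the 8 tested germline genes (vertical axis) in 3 comparisons of GFP+ cells and 3 steps of the time course, with filled points for an adjusted p under 0.05. *Hormad1*, at -0.51 in *Tsc2* KO against wild-type cells, is the only tested member that fell there, where 14.2% of all tested genes fell. All 8 tested members fell from day 2 to day 3, by 0.38 (*Sycp3*) to 3.61 (*Hormad1*), where 15.6% of all tested genes fell.

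GFP+ wild-type cells and the time course were sequenced as separate experiments, and their levels are only set side by side. *Dazl* at 8.51 to 14.2 TPM and *Hormad1* at 33.0 to 33.1 TPM in GFP+ wild-type cells stood beside 16.1 to 22.7 and 30.6 to 49.2 TPM at day 0. *Mael* at 15.8 to 18.5 TPM in GFP+ wild-type cells stood beside 8.45 to 11.3 TPM at day 0.

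A list of 30 other germline and meiotic genes was drawn up from general knowledge, with earlier results of these data known. It is a description and no independent support for the members. Of the 26 tested in the time course, 13 rose and 1 fell from day 0 to day 1 (30.1% and 30.8% of all tested genes). From day 1 to day 2, 9 rose and 15 fell (32.5% and 29.6%), the rises being near the share of all genes. From day 2 to day 3, 21 fell with none rising (15.6% and 15.9%). The medians were 0.46, -0.94 and -1.36 on the log2 scale. On the first day *Tdrd1*, which encodes a Tudor protein of the piRNA pathway, rose from 1.15 to 5.30 CPM (log2 fold change 2.19, SE 0.20, adjusted p = 2.46e-08) and *Tuba3b*, an alpha-tubulin of testis, from 0.905 to 3.95 CPM (2.09, SE 0.35, adjusted p = 3.98e-05). *Rec8*, which encodes the meiotic cohesin kleisin, was the exception and fell from 9.85 to 2.45 CPM (SE of the log2 fold change 0.19, adjusted p = 2.88e-08). Reads of *Tuba3b* may be shared with its near-identical copy *Tuba3a*, so its value is uncertain.

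The later days divided this list. From day 1 to day 2 the largest falls were of *Tex14* (59.4 to 5.94 CPM, log2 fold change -3.32, SE 0.11, adjusted p = 4.62e-14), a protein of the bridges between germ cells, *Rpl10l* (83.2 to 8.91 CPM, -3.22, SE 0.13, adjusted p = 2.47e-12), a ribosomal protein of testis, and *Tex19.1* (231 to 30.0 CPM, -2.95, SE 0.17, adjusted p = 5.8e-08). From day 2 to day 3 they were of *Tuba3b* (0.993 to 0.0965 CPM, -3.25, SE 0.67), *Taf7l* (-2.73, SE 0.23) and *Rpl10l* (-2.49, SE 0.22). *Taf7l* encodes a germ cell partner of the general transcription machinery. At day 3 against day 0, 17 were lower and 4 higher (median -1.63), where 35.9% of all tested genes were lower and 35.0% higher. The largest falls were of *Rpl10l* and *Tex14* at -5.11 each (SE 0.17 and 0.14) and *Majin*, which tethers meiotic telomeres, at -4.25 (3.32 to 0.166 CPM, SE 0.41). The mean day 3 levels of *Majin* and *Tuba3b* lay below the 0.199 to 0.245 CPM that a count of 0 allows. The size of their falls is therefore uncertain. The 4 that were higher were *Tdrd1* (2.66, SE 0.19), *Tdrkh* (2.45, SE 0.18), *Sycp2* (1.83, SE 0.30) and *Rec8* (0.57, SE 0.15), named here after their values were seen. *Sycp2* encodes the axis partner of *Sycp3*, which with *Ddx4* was among the members higher at day 3.

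In GFP+ cells 25 genes of this list were tested. In *Tsc2* KO against wild-type cells 11 rose with none falling (median 0.44), where 14.9% of all tested genes rose and 14.2% fell. In *Nprl2* KO cells 2 rose and 1 fell (median -0.10), where 2.78% of all tested genes rose and 3.66% fell. In *Tsc2* KO cells the largest changes were of *Brdt*, a bromodomain protein of testis (1.6 to 5.33 CPM, log2 fold change 1.73, SE 0.29, adjusted p = 0.000866), *Hormad2* (1.70 to 5.24 CPM, 1.61, SE 0.31, adjusted p = 0.00233) and *Sycp2* (1.19 to 2.90 CPM, 1.31, SE 0.44, adjusted p = 0.0403). *Hormad2* thus rose where its relative *Hormad1*, a member, fell. In *Nprl2* KO cells *Hormad2* (1.28, SE 0.32, adjusted p = 0.0355) and *Tex19.1* (0.76, SE 0.07, adjusted p = 0.000107) rose and *Smc1b*, the meiotic cohesin subunit, fell (-1.02, SE 0.23, adjusted p = 0.0215). Set directly against each other, *Tsc2* KO cells had 12 of the 25 higher and 2 lower than *Nprl2* KO cells (median 0.59). Of all tested genes 17.5% were higher and 16.6% lower. The largest differences were of *Brdt* at 2.31 (SE 0.30, adjusted p = 0.000104), *Sycp2* at 1.49 (SE 0.43, adjusted p = 0.0179), and *Tdrkh* and *Tuba3a* at 1.14 each (SE 0.36 and 0.16).

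**Figure D4:**
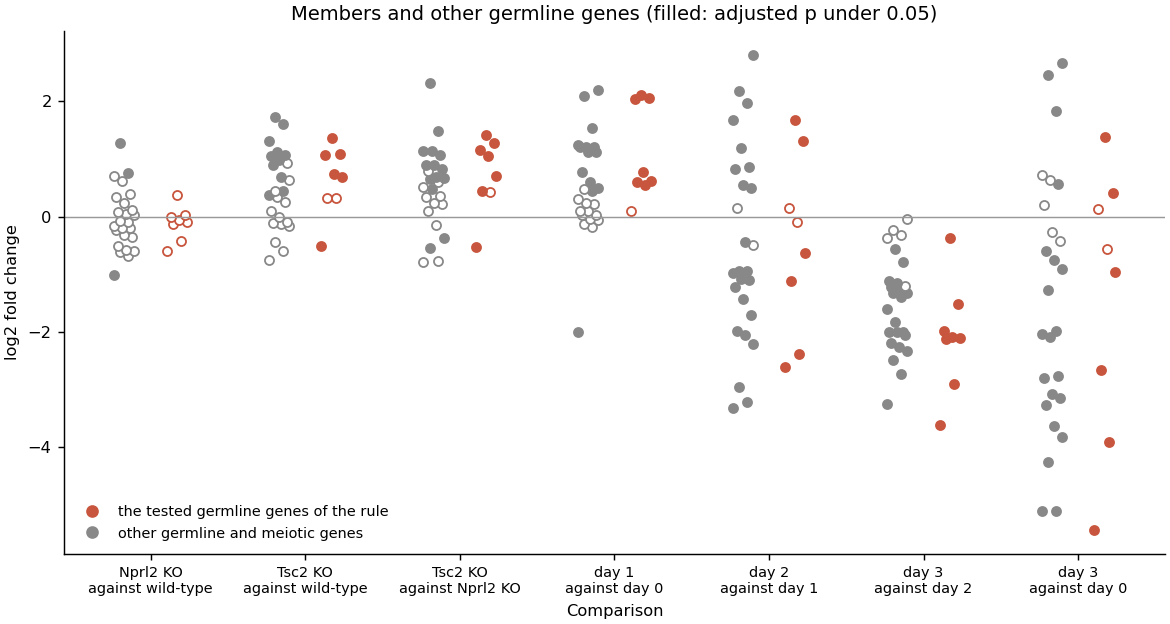
Log2 fold change (vertical axis) of the 8 tested members (red) and of the other germline and meiotic genes (grey, 25 in GFP+ cells and 26 in the time course) in 7 comparisons (horizontal axis), with filled points for an adjusted p under 0.05 and sideways spread for legibility only. Both sets lay mostly above 0 at day 1 against day 0 (7 and 13 rose, and 30.1% of all tested genes). They lay mostly below it at day 3 against day 2 (8 and 21 fell, and 15.6% of all tested genes).

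The enzymes that write and remove DNA methylation were a list of 9, all tested. From day 0 to 1, 6 rose and 1 fell (30.1% and 30.8% of all tested genes), from day 1 to 2, 2 rose and 6 fell (32.5% and 29.6%), and from day 2 to 3 none rose and 3 fell (15.9% and 15.6%). *Dnmt3a*, which writes new methylation, rose from 56.6 to 1050 CPM on the first day (log2 fold change 4.21, SE 0.13, adjusted p = 1.18e-11), and *Dnmt3b*, its close relative, from 228 to 2080 CPM (3.19, SE 0.13, adjusted p = 1.3e-09). The rise of both came on the day on which 7 members rose. *Tet2*, which oxidises methylcytosine, fell on that day from 188 to 38.7 CPM (-2.28, SE 0.15, adjusted p = 8.49e-08). *Dnmt3l*, a cofactor without catalytic activity, fell from 592 to 45.9 CPM on the second day (-3.69, SE 0.21, adjusted p = 3.01e-07) and to 6.73 CPM on the third (-2.77, SE 0.27, adjusted p = 9.61e-05). *Dnmt3a* fell to 450 CPM on the second day (-1.22, SE 0.11, adjusted p = 8.52e-07) and to 275 CPM on the third (-0.71, SE 0.11, adjusted p = 0.000556). *Dnmt3b* rose to 2860 CPM on the second day (0.46, SE 0.12, adjusted p = 0.006). On the third, when all 8 tested members fell, it was at 2300 CPM and did not pass the test (-0.32, SE 0.12, adjusted p = 0.0652). Against day 0, both stood higher at day 3, *Dnmt3b* by 3.33 (SE 0.13, adjusted p = 4.38e-10) and *Dnmt3a* by 2.28 (SE 0.12, adjusted p = 1.72e-09) on the log2 scale.

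In *Tsc2* KO cells *Dnmt3b* was at 176 and 179 CPM, against 730 and 814 CPM in wild-type and 989 and 1130 CPM in *Nprl2* KO cells. It was lower than in wild-type cells (log2 fold change -2.12, SE 0.08, adjusted p = 1.5e-08), as were *Tet1* (-0.68, SE 0.18, adjusted p = 0.0485) and *Dnmt1*, the maintenance enzyme (-0.23, SE 0.06, adjusted p = 0.0151). These were 3 of the 9, and none rose, where 14.2% of all tested genes fell and 14.9% rose. In *Nprl2* KO cells *Dnmt3b* was higher (0.45, SE 0.08, adjusted p = 0.00441) and *Tet2* lower (-0.43, SE 0.10, adjusted p = 0.0287). Their part in the levels of the germline genes was not tested.

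**Figure D5:**
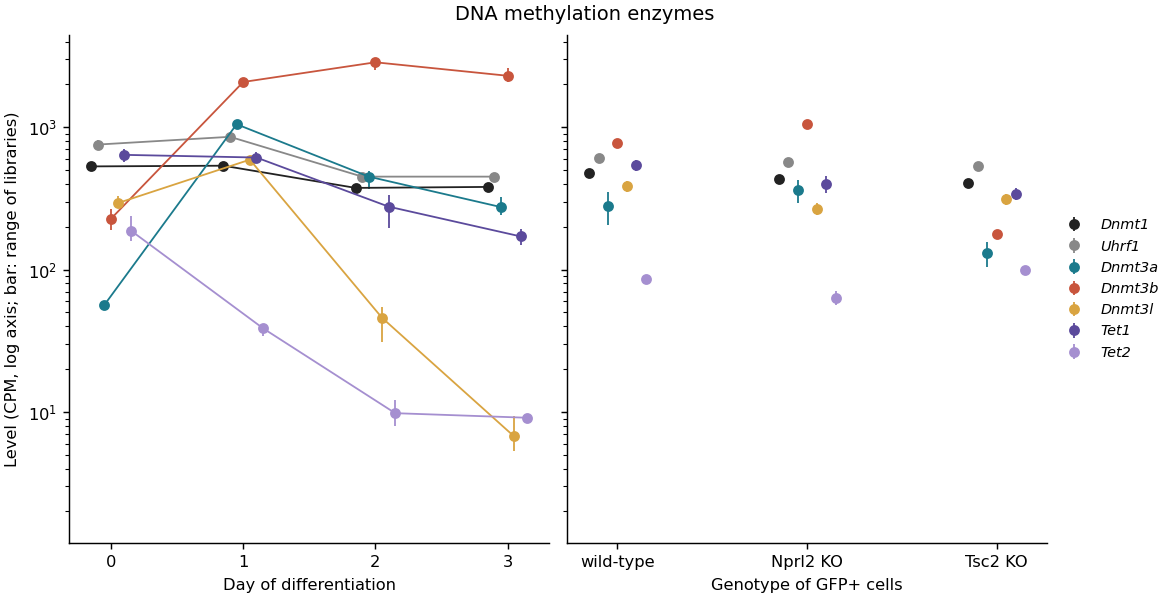
Level in CPM (vertical log axis) of 7 DNA methylation enzymes and cofactors by day of differentiation (left, lines join the daily means) and by genotype of GFP+ cells (right), with points at the mean and bars over the range of the libraries. *Dnmt3a* and *Dnmt3b* stood higher at day 1 than at day 0, and *Dnmt3b* was at 177 CPM in *Tsc2* KO against 772 CPM in wild-type cells.

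Known repressors of germline genes, a list of 15 made of the Polycomb complex named above and histone methyltransferases, were all tested. On the first day 9 rose and 2 fell, where 30.1% of all tested genes rose and 30.8% fell, led by *Tfdp2* (log2 fold change 1.20, SE 0.07, adjusted p = 4.1e-11), *Setdb1* (-0.79, SE 0.07, adjusted p = 1.87e-08) and *Ehmt1* (0.74, SE 0.07, adjusted p = 4.2e-08). On the second day 2 rose and 10 fell (32.5% and 29.6% of all tested genes), among them *L3mbtl2* (-0.98, SE 0.07) and *Max* (-0.79, SE 0.07), both of the Polycomb complex, while *Yaf2* rose (1.17, SE 0.14). On the third day, when all 8 tested members fell, 3 of the 15 rose and 4 fell (15.9% and 15.6% of all tested genes), with medians of -0.11 for this list and -2.09 for the members. In *Tsc2* KO against wild-type cells 1 rose, *Rnf2* (0.68, SE 0.07, adjusted p = 1.66e-05), and 5 fell (14.9% and 14.2% of all tested genes), with *Ehmt1* (-0.58, SE 0.07, adjusted p = 0.000108) and *Tfdp1* (-0.54, SE 0.07, adjusted p = 0.000135) lowest.

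Markers of cell types were read beside these results and were not tested for a part in them. *Pou5f1*, which is expressed in mESCs and in the formative cells that follow them, was at 674 to 1290 CPM in all libraries. The other markers put the later days apart from mESCs. From day 0 to 1, 4 of the 5 mESC markers fell (median -2.23 on the log2 scale) and all 4 formative markers, *Dnmt3b* among them, rose (median 4.83). Of all tested genes 30.8% fell and 30.1% rose. *Nanog* went from 859 to 24.2 CPM and *Fgf5* from 0.451 to 66.4 CPM. The summed level of the mESC markers was 4150 to 4380 CPM at day 0, 1710 to 1760 CPM at day 1 and 858 to 1060 CPM at day 3, and that of the formative markers 214 to 283, 2490 to 2760 and 2420 to 3020 CPM. At day 3 *Esrrb* was at 2.92 CPM against 921 CPM at day 0 and *Zfp42* at 11.2 against 721 CPM. Markers of primordial germ cells did not rise with the members on the first day, when 4 of 6 tested fell and none rose (30.8% and 30.1% of all tested genes). Their summed level was 330 to 366 CPM at day 0 and 27.6 to 31.2 CPM at day 1. *Prdm14* (47.3 to 0.799 CPM), *Tfap2c* (57.1 to 2.11 CPM) and *Kit* (225 to 9.35 CPM) fell most, and *Nanos3* was at most at 0.787 CPM at all days. In *Tsc2* KO against wild-type cells *Prdm14* rose (1.33, SE 0.18, adjusted p = 0.000248), and *Dppa3* (-2.16, SE 0.23, adjusted p = 9.4e-05), *Nanos3* (-1.65, SE 0.53, adjusted p = 0.0361) and *Prdm1* (-1.27, SE 0.24, adjusted p = 0.00181) fell. Of the 5 mESC markers 3 rose in *Tsc2* KO cells (*Esrrb* at 1.03, *Nanog* at 0.91 and *Zfp42*, the reporter's own gene, at 0.52), where 14.9% of all tested genes rose. Of the 4 formative markers 3 fell (*Pou3f1* at -3.24, *Dnmt3b* at -2.12 and *Otx2* at -1.13), where 14.2% of all tested genes fell.

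Genes of the 2-cell-like state, a rare state of mESC cultures, rose with the members on the first day. Of 8 tested 7 rose and none fell, where 30.1% of all tested genes rose and 30.8% fell. Their summed level was 28.4 to 44 CPM at day 0 and 83.7 to 136 CPM at day 1. In *Tsc2* KO against wild-type cells 3 of 10 tested fell and none rose, where 14.2% of all tested genes fell, with *Zscan4a* at -1.24, *Zscan4b* at -0.69 and *Usp17lc* at -0.54 on the log2 scale. The other 7 lay between -0.65 (*Zscan4f*) and 0.55 (*Tcstv3*) and did not pass the test. The summed level was 589 to 928 CPM in wild-type and 486 to 489 CPM in *Tsc2* KO cells. Many are near-identical copies whose reads cannot be told apart with certainty. In the GFP+ cells, which were sorted for the reporter, fibroblast markers summed to 281 to 387 CPM in wild-type, 291 to 303 CPM in *Nprl2* KO and 83.3 to 329 CPM in *Tsc2* KO cells. In the time course they summed to 19.2 to 53.6 CPM, and *Thy1* among them went from 3.91 CPM at day 0 to 25.4 CPM at day 3. The paper's methods describe mESCs grown on fibroblast feeder cells, and where these transcripts came from was not tested. Between the *Tsc2* KO libraries *Mael* was at 45.5 and 45.4 TPM and *Sycp1* at 2.20 and 1.51 TPM. A part of fibroblasts in the members' levels was not tested. Endoderm markers summed to at most 14.3 CPM in any library.

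Other genes followed the mean of the tested members closely, which is not the pattern of each member. Each tested member was first put on a common scale. Likeness was measured by Pearson's r over the libraries of an experiment, which share their groups and depth, as a description only. Between 2 members r ran from -0.78 (*Dazl* with *Sycp3*) to 0.99 (*Dazl* with *Hormad1*) in the time course. In GFP+ cells *Hormad1* was at -0.98 to -0.73 with the other tested members, whose own pairs were at 0.40 to 0.95. Over the 12 time-course libraries the 5 closest of all tested genes were *Dmrt1* (0.977), a transcription factor of the gonad and germ cells, *Zcwpw1* (0.966), a histone reader of meiosis that is on the list above, *Mdm2* (0.963), *Thada* (0.962) and *Pstpip1* (0.962). *Dmrt1* rose by 1.33 (SE 0.16) on the first day and fell by 2.38 (SE 0.17) on the third. Over the 6 GFP+ libraries they were *Cat* (0.998), *Ivns1abp* (0.997), *Prdm14* (0.996), *Tbc1d1* (0.996) and *St3gal2* (0.996). No gene was among the 5 closest in both experiments.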

How the data were processed

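For each library the authors deposited estimated counts per RefSeq transcript from kallisto 0.42.1, not normalized between libraries, and TPM values from the same run, with mm10 as the build in the submitters' processing notes. The authors also deposited tables of their own KO comparisons (base mean, log2 fold change, SE, statistic, p-value and adjusted p), which were not used. The paper's methods name stranded mRNA libraries and paired-end reads for the GFP+ libraries only. All 162 member values in the deposited TPM table equalled the sum of their transcripts within 0.1 percent.

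Transcripts were assigned to genes through RefSeq (GRCm38.p6, 33713 of 34079) or GENCODE M21 (192), and 174 were left out (1.65% to 3.57% of counts). Estimated counts were summed over 24296 genes and rounded. Reads shared by near-identical genes were divided by kallisto. Counts were tested with edgeR 4.0.16 in R 4.3.3 (TMM, its low-count filter, robust quasi-likelihood, Benjamini-Hochberg adjustment over all tested genes, threshold 0.05), the 6 GFP+ libraries in a fit of their own and the 12 time-course libraries in another. The SE is the absolute log2 fold change divided by the square root of F. CPM use TMM-normalized totals, and group values of CPM are means. The fit was tested on simulated data. Promoter sequences are from RefSeq.

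Alternatives were DESeq2 1.42.0, upper-quartile normalization, no filter, a stricter filter (10 counts or more per library), a block for the replicate number, the compared groups alone, limma 3.58.1 on log2(TPM + 1) or log2(TPM + 0.1), and leaving out each library. All 9 members are named. From each list up to 3 called genes per comparison with the largest change are named, and the 5 genes most like the members' mean, besides *Nprl2* and *Tsc2*. The members and lists were chosen with earlier results of these data known.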

Additional observations from a re-analysis of the deposited data

Results flagged for a closer look

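The KO lines differed from each other in 7 members by the direct test of *Tsc2* KO against *Nprl2* KO cells (edgeR, adjusted p under 0.05), which is the test of the difference between their effects, since both are set against the same wild-type libraries. Of all tested genes 17.5% were higher and 16.6% lower in this comparison. The log2 differences were 1.42 for *Mael*, 1.27 for *Stk31*, 1.15 for *Sycp3*, 1.05 for *Dazl*, 0.70 for *Slc25a31*, 0.44 for *Ddx4* and -0.53 for *Hormad1*. Both *Tsc2* KO libraries lay on the same side of both *Nprl2* KO libraries for all 7, which adds no support, since the same libraries gave the calls. The share of all tested genes separated in this way was not computed. The call of *Ddx4* (adjusted p = 0.0488) held in 5 of 12 alternatives, with adjusted p from 0.00992 to 0.351, and that of *Slc25a31* in 9 of 12. *Mael* lies on chromosome 1, whose tested genes had a median of 0.36 in this comparison.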

How the results depend on the processing

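No member was called in *Nprl2* KO against wild-type cells, but 1 was called without the filter on low counts (*Stk31*, adjusted p = 0.00295) and 2 under a replicate block (*Stk31* at -0.57, adjusted p = 0.00426, and *Sycp3* at -0.43, adjusted p = 0.0385), and 0 to 1 when a library was left out. In *Tsc2* KO against *Nprl2* KO cells 4 to 7 were called when a library was left out. Same-numbered libraries deviated together with correlations of 0.08 to 0.16 in GFP+ cells and -0.11 to 0.13 in the time course. With different numbers the time-course values were -0.20 to 0.22. In GFP+ cells they were -0.16 to -0.08, which only mirrors the same-numbered values and adds no information. Each group of 2 libraries was centred on its mean, so its libraries deviate by equal and opposite amounts. The labels do not say that the numbers pair the libraries, and the main test did not use them. Whether the numbers carry a shared effect in GFP+ cells is not settled. There the block called 2072 genes in *Nprl2* KO against wild-type cells, where the main test called 381 higher and 502 lower. The block also called *Slc25a31* at day 3 against day 0 (-0.56, adjusted p = 0.0258) and changed no other call of a member. A group left with 1 library was assumed to vary like the others.

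Signs turned in 15 of the 728 alternative values of single members, all for members not called. For *Hormad1* in *Nprl2* KO cells limma gave -0.02 with either pseudocount. When a library was left out, the range in *Nprl2* KO cells was -0.29 to 0.41 for *Dazl*, -0.36 to 0.08 for *Ddx4*, -0.11 to 0.11 for *Hormad1*, -0.20 to 0.06 for *Mael* and -0.37 to 0.13 for *Sycp1*. In the time course it was -0.01 to 0.24 for *Sycp3* from day 0 to 1, -0.28 to 0.09 for *Sycp1* from day 1 to 2, where limma on log2(TPM + 1) gave 0.00, and -0.05 to 0.25 for *Mael* from day 0 to 3.

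Of called members, *Sycp1* at day 3 against day 0 was lost with DESeq2 (adjusted p = 0.0605), upper-quartile normalization (0.0544), the compared days alone (0.0695) and limma on log2(TPM + 1) (0.0907), and *Sycp3* at day 3 against day 2 with limma (0.058 and 0.067). *Ddx4* in *Tsc2* KO against *Nprl2* KO cells was also lost with upper-quartile normalization (0.0509), the stricter filter (0.0525) and the compared groups alone (0.056), and *Hormad1* from day 0 to 1 with limma on log2(TPM + 0.1) (0.0503). The cause was not tested. Without a filter *Asz1* was called from day 0 to 1 (2.76, adjusted p = 0.00492) and from day 1 to 2 (-2.73, adjusted p = 0.00544), and DESeq2 called both (0.0453 and 0.0484). On the log2(TPM + 1) scale limma gave folds smaller by over 1.5 times for some called changes, listed here as log2 values. They were *Sycp1* from day 0 to 1 (1.05), and *Hormad1* (-2.59), *Stk31* (-1.46) and *Sycp1* (-1.34) from day 2 to 3. From day 0 to 3 they were *Dazl* (-3.13), *Hormad1* (-4.34), *Stk31* (-1.93) and *Sycp1* (-0.28). Depth limits *Asz1* and *Sycp1* most.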
